A study of Mus musculus with 8 samples.

Results

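The genes described here are the prolactin receptor gene Prlr, the growth hormone receptor gene Ghr, the feedback inhibitors Cish and Socs2, the tryptophan hydroxylase genes Tph1 and Tph2, and Ehhadh. They were chosen by name, as genes tied to the growth of islets in pregnancy, with earlier results of these data known. These are 7 of the 24421 genes in the count tables. They were followed in single islet cells of mice after removal of part of the pancreas, to ask whether the pregnancy-type pattern was present in β-cells of the remnant and, where a gene was not seen, what level the depth could have missed.

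Islet cells came from C57BL/6J males, 8 weeks old. In the PPTx group 50% of the pancreas, on the splenic side, had been excised 2 days before the islets were isolated, and the control group had no operation, sham surgery included. Each group held 4 samples, and each sample pooled islets of 1 to 3 mice. The PPTx islets thus came from the duodenal side of the pancreas and the control islets from the whole organ, so that the operation and the region cannot be told apart.

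Prolactin and placental lactogen bind PRLR, and growth hormone binds GHR. Both receptors signal through the kinase JAK2 and the transcription factors STAT5A and STAT5B, which induce Cish and Socs2, and the proteins of these genes damp the same signal. In β-cells of pregnant mice, lactogen signalling is known to raise Tph1 and Tph2 strongly. Their enzymes carry out the rate-limiting step of serotonin synthesis, and serotonin released by β-cells acts on their proliferation and insulin secretion. Ehhadh encodes a bifunctional enzyme of peroxisomal fatty acid oxidation.

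STAT5 dimers bind a palindrome whose letters are TTCNNNGAA, which reads alike on both strands. RefSeq promoters of the GRCm38.p6 build, taken from 250 bases before to 50 bases after each annotated start, were searched for it, and 6 of the 7 genes had at least 1 entry, all but Socs2. Of all 32851 promoters, 8.30% held the letters. Both stretches that matched are shown because they place the STAT5-type letters beside the receptor gene and beside its target gene. Capitals mark the matches. The Cish stretch (chr9:107296654-107296683, plus strand) held 2 matches, the first of which began at base 1 of the annotated gene and the second 11 bases further on. The Prlr stretch (chr15:10223786-10223815, plus strand) belonged to the second of 3 annotated starts, with its match 110 bases before that start, at -110. The promoters of Ghr, Tph1, Tph2 and Ehhadh and the other Prlr starts did not hold these letters.
Cish: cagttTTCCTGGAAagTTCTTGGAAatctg
Prlr: gcaaaatgagTTCTAGGAAtaagggatatc

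In all, 1232 of 1240 deposited cells passed the filters, 520 from control and 712 from PPTx. Each sample gave 65 to 294 cells and 227439 to 1580152 UMIs (unique molecular identifiers, each standing for 1 captured transcript). Cells were sorted into hormone classes by the hormone with the most UMIs, which had to reach 2 times the next. This gave 953 insulin-class, 114 Gcg-class, 130 Ppy-class and 13 Sst-class cells, and 22 cells stayed mixed. All 10 β-cell markers were detected in the insulin class of both groups. Those other than the hormones that set the classes summed to 44309 to 63391 CPM there (UMIs scaled to a total of 1000000 per sample and class). Iapp, itself a hormone gene, is one of the 10 and may be part of these sums. Of the same 10 genes, 7 to 9 had a UMI in the Gcg and Ppy classes of each group, where they summed to 615 to 9376 CPM without the hormones, and Mafa was at 0 there. In the 13 Sst-class cells they summed to 11688 to 31735 CPM. Only 4 of the 10 genes had a UMI in the PPTx cells of that class. There Slc2a2, Nkx6-1, Mafa, G6pc2, Slc30a8 and Pdx1 were at 0. Alpha-cell markers without the hormones summed to 1304 to 1748 CPM in the insulin class of control and 1822 to 2262 CPM in PPTx, without overlap. In the Gcg class they summed to 21086 to 58599 CPM. In the insulin class, delta-cell markers without the hormones reached 55.1 CPM in control and 135 CPM in PPTx, and PP-cell markers 24.1 and 53.0 CPM. Markers of non-endocrine cell types were low there, and their highest sample was often one of PPTx. Stellate markers (5 of 5 seen) reached 21.8 CPM in control and 228 CPM in PPTx, acinar markers (5 and 6 of 6) 45.9 and 124 CPM, ductal markers (3 of 4 in each) 57.4 and 129 CPM, and immune markers (3 and 5 of 5) 59.8 and 135 CPM. Endothelial markers (3 of 6 in each, Pecam1, Cdh5 and Flt1 at 0) reached 10.2 and 5.05 CPM. The part of these cells in the results was not tested. In 15 insulin-class cells, 3 of control and 12 of PPTx, insulin made up under 20% of UMIs, and Ghrl, the ghrelin gene, reached 5797 CPM in 1 PPTx sample. Leaving these 15 cells out changed no call or direction of a member between PPTx and control. One barcode occurred in 2 samples. Gcg-class cells made up 9.23 to 27.8% of control samples and 0.633 to 5.19% of PPTx samples, and Ppy-class cells 3.08 to 8.82% and 10.1 to 15.0%.

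Prlr was far higher in insulin-class cells than in any other hormone class. It had 2743 UMIs in 770 of the 953 insulin-class cells (80.8%, exact binomial 95% interval 78.2 to 83.3) against 29 UMIs in 27 of the 257 cells of the Gcg, Ppy and Sst classes (10.5%, 7.04 to 14.9). Intervals of this kind cover counting error only. With every cell thinned to 2000 UMIs, a depth that all 1232 cells reached, 53.5% of insulin-class cells and 2.72% of the others held a Prlr UMI. Per sample, Prlr was 430 ± 96.1 CPM (SD, n = 8) in the insulin class, 16.3 ± 21.1 CPM (n = 8) in the Ppy class and 14.7 ± 23.2 CPM (n = 8) in the Gcg class. The Sst class had 2 Prlr UMIs in its 13 cells. The lowest insulin-class sample, at 265 CPM, lay above every Ppy-class sample, of which the highest was 63.2 CPM, and above every Gcg-class sample, of which the highest was 55.7 CPM. Each sample counts alike here, however few its cells. In the 1 Gcg-class cell of PPTx replicate 4, 3 UMIs would make 879 CPM. In the 2 Ppy-class cells of control replicate 1 they would make 461.5 CPM. The Prlr values of 0 in these 2 sums thus do not place them below 265 CPM.

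The difference held in every sample. Prlr was higher in the insulin class than in the sum of the other hormone classes in 8 of 8 samples, by 411 ± 96.5 CPM (exact sign-flip permutation test, two-sided p = 0.00781, the smallest that 8 samples allow). In a quasi-likelihood fit of edgeR that kept each sample as its own block, its log2 difference was 4.38 ± 0.23 (SE, n = 8), a 20.8-fold difference (95% interval 15.0 to 28.9). In that test 22.2% of the 2507 genes tested were called higher in the insulin class. Prlr and Ghr were the members that passed its filter on low counts. Prlr passed through its insulin-class counts, since it had 0 to 14 UMIs per sample in the other classes. Its edgeR p is therefore not given as support, and no share of members called is read from that test. An unadjusted p under 0.05 was reached by 49.7% of genes. Against the Ppy class alone, over the 5 samples with at least 10 cells of both, the edgeR log2 difference of Prlr was 3.77 ± 0.25, where 13.8% of genes were called higher. Against the Gcg class alone, over 3 control samples, it was 5.75 ± 0.35, where 13.8% were called higher as well. These sizes rested on single samples. The log2 difference was 4.72 against the Ppy class without PPTx replicate 2, and against the Gcg class it was 6.65 without control replicate 2 and 4.99 without control replicate 3. Ppy-class and Gcg-class cells could not be told apart in Prlr level (difference 1.56 ± 30.02 CPM over 8 samples, exact sign-flip p = 0.906).

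**Figure D1:**
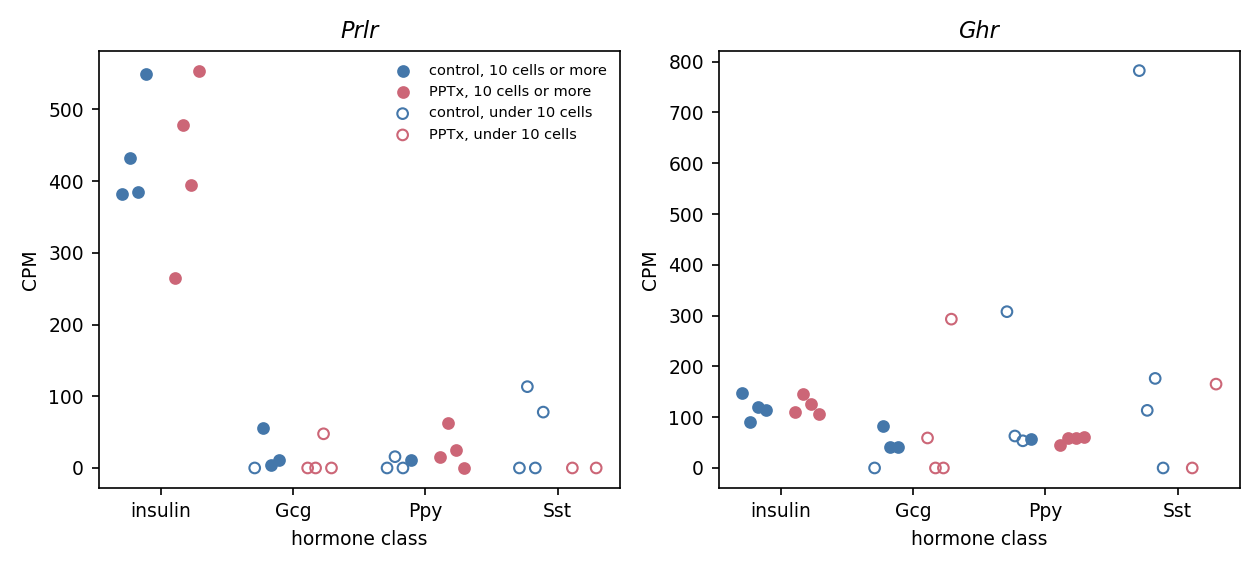
CPM of Prlr (left) and Ghr (right) in each sample, by hormone class; filled points are sums over 10 or more cells and open points sums over fewer. Every insulin-class sample lies above every sample of the other classes for Prlr, while for Ghr the scattered high points of the other classes are open points of few cells.

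Some RNA is free in the suspension and is captured with any cell. Insulin itself made up 58.2% of UMIs in the insulin class and 0.928% in the other hormone classes together. Had Prlr entered those other cells only in its insulin-class ratio to insulin, sample by sample, 9.41 of their 29 Prlr UMIs and 2.66 of their 69 Ghr UMIs would be carried over in that way. Of the 21 Prlr UMIs in Ppy-class cells, 14 came from PPTx replicate 2, where 12 of 44 Ppy-class cells held one.

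Ghr was present in every class. It had 775 UMIs in 465 insulin-class cells (48.8%, exact binomial 95% interval 45.6 to 52.0), 43 UMIs in 32 Ppy-class cells, 19 in 16 Gcg-class cells and 7 in 5 of the 13 Sst-class cells. Its insulin-class level was 120 ± 19.6 CPM (SD, n = 8), and the other hormone classes together gave 76.3 ± 60.9 CPM (n = 8). The sample values overlapped, from 91.1 to 148 CPM in the insulin class and from 45.5 to 223 CPM in the others. Ghr was higher in the insulin class in 7 of 8 samples, with an exact sign-flip p of 0.0625. The exception was control replicate 1, whose other classes held 10 cells and 6 Ghr UMIs, and without it the difference was 60.9 CPM (exact sign-flip p = 0.0156). In edgeR, which weights samples by their counts, the log2 difference of Ghr was 1.27 ± 0.19 (SE, n = 8, adjusted p = 6.24e-07). It was 1.16 ± 0.26 against the Ppy class and 1.78 ± 0.34 against the Gcg class, below the value of Prlr in each of these fits.

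The feedback inhibitors were sparse in every class. Cish, whose protein binds the activated receptors, had 131 UMIs in 110 insulin-class cells and 12 UMIs in 12 cells of the other classes. Socs2, which restrains growth hormone signalling, had 146 UMIs in 127 insulin-class cells and 10 UMIs in 9 cells of the other classes. Socs2 was higher in the insulin class in 7 of 8 samples, by 16.9 ± 10.9 CPM (exact sign-flip p = 0.0156). Cish was higher in 6 of 8 samples, by 9.29 ± 12.4 CPM (exact sign-flip p = 0.0781). Neither passed edgeR's filter in the comparison of classes.

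Among the other genes of the pathway, 7 of the 25 on a list of lactogen signalling genes were tested between the insulin class and the other classes. The filter admits genes that are high in either class, so the lists are described here by their called genes, and nothing is read from the share called (22.2% of all genes were called higher and 21.2% lower). Of the 7 genes 4 were called higher and none lower. Besides Prlr and Ghr they were Igf1r, the receptor of insulin-like growth factor 1 (1.35 ± 0.24), and the kinase gene Jak1 (0.82 ± 0.26). Igf1r had 37 UMIs and Jak1 42 UMIs in the other classes, and both passed the filter through the insulin class. The p-values of these 2 calls are therefore not given as support. The call of Jak1 was lost without PPTx replicate 2 (adjusted p = 0.0766). Among 7 tested genes on a list of genes named in the pregnant islet, 5 were called higher. They include Prlr and Slc2a2, a glucose transporter gene with 13 UMIs in the other classes, both of which passed the filter through the insulin class (log2 difference of Slc2a2 4.59 ± 0.25). Called too were the chaperone gene Fkbp11 (2.18 ± 0.18, adjusted p = 2.22e-13) and the cyclin gene Ccnd1 (0.82 ± 0.13, adjusted p = 3.42e-06).

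The genes whose profile over samples and classes was most like that of Prlr were Gng12, Atp2a2, Spock2, Hdlbp and Adra2a. Pearson's r of log2(CPM + 10) was 0.97, 0.97, 0.96, 0.96 and 0.96 over 16 profiles, 8 of the insulin, 5 of the Ppy and 3 of the Gcg class, among 3340 genes compared. The profiles share libraries, and the contrast between classes dominates them, so these values are a description.

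Neither receptor differed detectably between PPTx and control in insulin-class cells. Permutation tests were run there for the 6 members with a UMI. Prlr stood at 382, 432, 385 and 549 CPM in the control samples and at 265, 478, 394 and 554 CPM in the PPTx samples. The groups overlapped throughout, and the lowest value was PPTx replicate 1. The means were 437 ± 78.1 CPM in control and 423 ± 124 CPM in PPTx (SD, n = 4 each, exact permutation test, two-sided p = 0.943). In edgeR the log2 fold change of Prlr, PPTx over control, was -0.16 ± 0.19 (SE, adjusted p = 0.876), and the 95% interval of the fold ran from 0.678 to 1.18. Its small direction rested on single samples, since the difference in means turned to 38.4 CPM higher in PPTx without PPTx replicate 1 and to 23.1 CPM higher without control replicate 4.

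Ghr stood at 148, 91.1, 120 and 115 CPM in control and at 110, 147, 126 and 106 CPM in PPTx. The ranges lay within each other, with means of 118 ± 23.3 and 122 ± 18.5 CPM (SD, n = 4 each, exact permutation p = 0.857). The edgeR log2 fold change of Ghr was -0.04 ± 0.17 (adjusted p = 0.971), with a 95% interval of the fold from 0.765 to 1.24. On the CPM scale the difference was 3.58 CPM higher in PPTx, and it became 19.7 CPM lower once hormone genes were left out of the totals, 5.51 CPM lower without control replicate 2 and turned to -4.63 CPM without PPTx replicate 2. Changes smaller than the intervals given for each receptor were not detectable here.

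**Figure D2:**
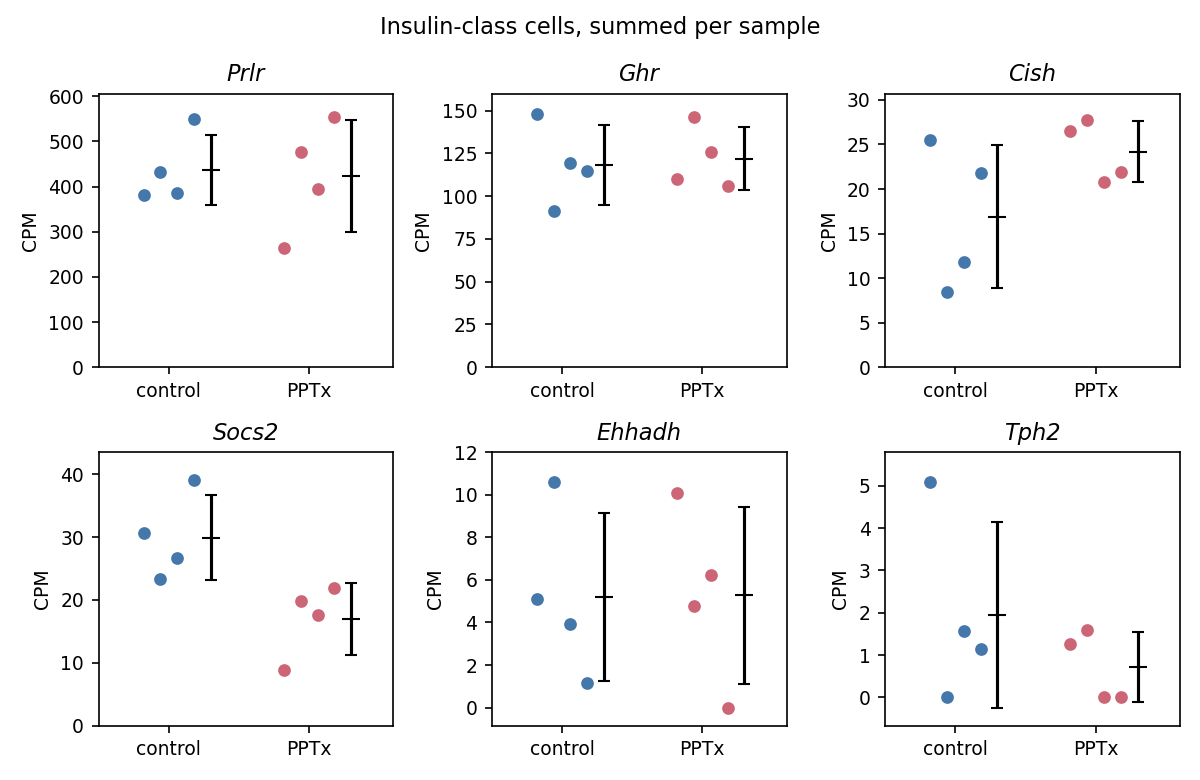
CPM of 6 genes in insulin-class cells, 1 point per sample, with the group mean and SD (n = 4) beside the points. Socs2 separates the groups, from 23.3 to 39.0 CPM in control and from 8.83 to 21.9 CPM in PPTx, and the other 5 genes overlap.

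Prlr was also followed from cell to cell. With cells thinned to 2000 UMIs, a Prlr UMI was seen in 54.3 ± 7.55% of insulin-class cells in control and 51.6 ± 9.65% in PPTx (SD, n = 4 each, exact permutation p = 0.686). Without thinning the pooled shares were 83.5% and 79.1%, at median depths of 7212 and 5646 UMIs. The variance of the thinned Prlr count between cells was 1.3 ± 0.22 times its mean (n = 8 samples, range 1.01 to 1.70), where independent sampling at 1 level would give a ratio near 1. The share of cells with a Ghr UMI was 19.4 ± 4.23% in control and 23.1 ± 3.07% in PPTx (exact permutation p = 0.171).

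**Figure D3:**
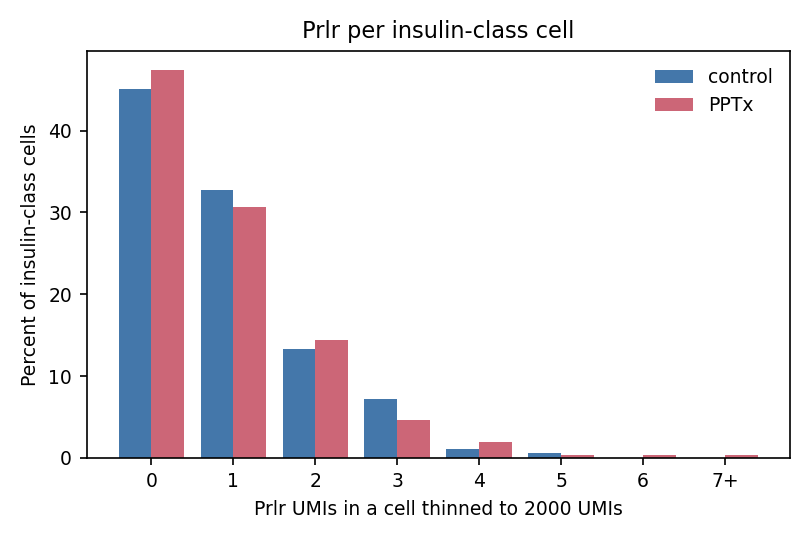
Percent of insulin-class cells of each group (375 control, 578 PPTx) by the number of Prlr UMIs left after thinning each cell to 2000 UMIs. Cells without a Prlr UMI make up 45.1% of control and 47.4% of PPTx, and cells with 3 make up 7.20% and 4.67%. The cells of each group are pooled over its samples.

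Of the feedback inhibitors, Socs2 was lower in every PPTx sample and Cish was not. Socs2 stood at 30.6, 23.3, 26.8 and 39.0 CPM in the control samples, from 6, 11, 34 and 34 UMIs. In the PPTx samples it stood at 8.83, 19.8, 17.6 and 21.9 CPM, from 7, 25, 17 and 12 UMIs. Every PPTx sample was below every control sample, with means of 29.9 ± 6.77 and 17.0 ± 5.74 CPM (SD, n = 4 each, exact permutation p = 0.0286, the smallest that 4 against 4 allows). The edgeR log2 fold change of Socs2 was -0.97 ± 0.29 (unadjusted p = 0.00289), but over all 5911 genes tested its adjusted p was 0.213, and 0.133 to 0.571 under the alternatives. Among the tested genes 1.03% lay lower in every PPTx sample than in every control sample, 4.80% lay higher, and 5.84% did not overlap in one direction or the other. With samples of the same number taken as pairs, the 4 pairs gave an exact sign-flip permutation p of 0.125 for Socs2, the smallest they allow. Without control replicate 4, the difference of Socs2 was -9.84 CPM. After thinning to 2000 UMIs, where 22 Socs2 UMIs remained in control and 20 in PPTx, the difference had an exact permutation p of 0.200.

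Cish stood at 25.5, 8.47, 11.8 and 21.8 CPM in control, from 5, 4, 15 and 19 UMIs. It stood at 26.5, 27.7, 20.8 and 21.9 CPM in PPTx, from 21, 35, 20 and 12 UMIs. The PPTx samples lay in the upper part of the control range or above it, and the groups overlapped, with means of 16.9 ± 8.06 and 24.2 ± 3.41 CPM (SD, n = 4 each, exact permutation p = 0.171). With cells thinned to 2000 UMIs, 2.03 ± 1.49% of insulin-class cells in control and 4.06 ± 0.54% in PPTx held a Cish UMI (exact permutation p = 0.114), a difference of 2.03 percentage points that became 2.74 without control replicate 4 (exact permutation p = 0.0286). With samples of the same number taken as pairs, Cish CPM was higher in PPTx in 4 of 4 pairs (exact sign-flip p = 0.125, the smallest they allow). The edgeR log2 fold change of Cish was 0.51 ± 0.31 (adjusted p = 0.629). Pooled over samples, the ratio of Cish UMI rates was 1.61 (95% interval 1.11 to 2.38, counting error only).

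None of the 4 members that edgeR could test (Prlr, Ghr, Cish and Socs2) was called between PPTx and control in insulin-class cells, where 0.288% of genes were called, 0.169% higher and 0.118% lower in PPTx. At an unadjusted p under 0.05 there was 1, Socs2, against 9.44% of genes. DESeq2 called none of the 4, and gave no adjusted p for 2 of them, Cish and Socs2. That edgeR count of called genes, 17 in all, was itself unsteady. It was 33 with same-numbered samples paired, and it fell to 1 without control replicate 1, to 2 without control replicate 2, to 10 without control replicate 4 and to 1 without PPTx replicate 1. In all cells of a sample together, the edgeR log2 fold changes were -0.03 ± 0.20 for Prlr, 0.02 ± 0.17 for Ghr, 0.62 ± 0.30 for Cish and -0.89 ± 0.29 for Socs2, with adjusted p values of 0.983, 0.995, 0.523 and 0.243, where 0.474% of genes were called. Cish and Socs2 had an unadjusted p under 0.05 there (0.0496 and 0.00486), against 9.49% of genes. The share of all cells with a Cish UMI after thinning was 2.04 ± 1.17% in control and 4.01 ± 1.31% in PPTx, from 0.980 to 3.08% and from 3.17 to 5.93% (SD, n = 4 each, exact permutation p = 0.0286), so that the groups did not overlap, where 2.40% of genes lay higher in PPTx in this way and 4.26% did not overlap in either direction. That call was lost with same-numbered samples taken as pairs (exact sign-flip p = 0.125), without thinning (exact permutation p = 0.143) and in 6 of the 8 fits that left out a sample, all but those without control replicate 1 or 4 (p up to 0.143). Gcg-class cells numbered 95 of 520 in control and 19 of 712 in PPTx, and Ppy-class cells 32 and 98, and the part of these numbers in the all-cell values was not tested. The Gcg-class and Ppy-class cells of single samples were too few for the same edgeR comparison. In the other hormone classes together, Prlr had 8 UMIs in control and 21 in PPTx (13.9 ± 16.7 and 24.3 ± 23.4 CPM, n = 4 each, exact permutation p = 0.543), and Ghr had 37 and 32 UMIs (exact permutation p = 0.657).

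Tph1 was not seen. No Tph1 UMI was present in any of the 1232 cells, nor in the 8 cells left out. For insulin-class cells this was 0 of 375 cells in control, which allows a share of cells with a UMI of up to 0.800%, and 0 of 578 in PPTx, which allows up to 0.519%. In CPM, the limit set by 3 counts was 1.07 in control and 0.841 in PPTx insulin-class cells, and 0.387 over all cells. A cell with fewer transcripts than the droplets capture would not be counted, so the limit is one on cells with a UMI and not on cells that express the gene.

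Tph2 was at the edge of detection. It had 8 UMIs in 8 cells, 7 of the insulin class and 1 of the Gcg class, and no cell held more than 1. In the insulin class these were 4 UMIs in control, from 3 of the samples, and 3 UMIs in PPTx, from 2. The pooled rates were 1.42 CPM (exact Poisson 95% interval 0.388 to 3.65) and 0.841 CPM (0.173 to 2.46). The ratio of PPTx to control was 0.591 (0.0866 to 3.49, counting error only), whose upper bound a larger rise would have passed. The insulin-class rate and the single Gcg-class UMI did not differ beyond counting error (ratio 0.534, 0.0685 to 24.1).

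Some other steps of serotonin handling were expressed, while the listed receptors were not detected. Of the 29 genes on a serotonin list, 15 had no UMI in the hormone classes. These were Tph1, the reuptake transporter gene Slc6a4 and the 13 serotonin receptor genes on the list, which leaves out Htr5b, each with a limit of 0.470 CPM in the insulin class. Ddc, which encodes the decarboxylase of the next step, had 1233 UMIs in the insulin class and was higher there than in the other hormone classes by a log2 difference of 1.302 ± 0.16 (edgeR adjusted p = 4.99e-09). Higher too were Gch1, the entry enzyme of tetrahydrobiopterin synthesis (0.84 ± 0.18, adjusted p = 0.000219), and Qdpr, which recycles that cofactor (0.50 ± 0.16, adjusted p = 0.0109). Maob, a monoamine oxidase gene, was also called higher (1.46 ± 0.26). With 44 UMIs in the other hormone classes, Maob passed the filter through the insulin class, so its p is not given as support. Pcbd1, a second recycling enzyme, was lower (-0.64 ± 0.13, adjusted p = 0.000149), a call that was lost without the filter on low counts (adjusted p = 0.0647). That made 5 called of 7 tested, where 43.4% of all genes were called in either direction, and nothing is read from that share. Among the genes not tested, the vesicular monoamine transporter gene Slc18a2 had 0 UMIs in the insulin class and 2 in the other hormone classes. Slc18a1, another such transporter gene, had 43 insulin-class UMIs, and Maoa had 28. Between PPTx and control in insulin-class cells, 0 of 9 tested serotonin genes were called by edgeR or DESeq2, and none had an unadjusted p under 0.05. In that comparison edgeR called 0.288% of all 5911 genes, and for 9.44% of them the p lay below 0.05 before adjustment. The median log2 fold change of the 9 serotonin genes was -0.13, against -0.01 over all genes. Ddc stood at 186 ± 17.9 CPM in control and 187 ± 37.8 CPM in PPTx (n = 4 each).

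Ehhadh, which rises in islets of pregnant rodents, was also rare. It had 32 UMIs in 31 insulin-class cells and 4 UMIs in 4 cells of the other hormone classes. The insulin-class samples held 1, 5, 5 and 1 UMIs in control and 8, 6, 6 and 0 in PPTx. That gave 5.19 ± 3.96 and 5.27 ± 4.17 CPM (SD, n = 4 each, exact permutation p = 1), and the pooled ratio was 1.31 (0.611 to 2.95, counting error only). PPTx replicate 4, without an Ehhadh UMI in 137 cells, allows up to 5.47 CPM. Of the 13 tested genes of peroxisomes and fatty acid oxidation, 0 were called by edgeR and 0 by DESeq2, which gave no adjusted p for any of them. Those with an unadjusted edgeR p under 0.05 numbered 2, Decr2 (-0.96 ± 0.40, adjusted p = 0.469) and Pex19 (-0.70 ± 0.33, adjusted p = 0.527). In this comparison of PPTx and control, edgeR called 0.288% of all 5911 genes tested, and 9.44% had an unadjusted p under 0.05.

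Across the wider set of genes named in the pregnant islet, 13 of 26 could be tested between PPTx and control in insulin-class cells, and 1 was called. Fkbp11, a prolyl isomerase of the endoplasmic reticulum, stood at 96.8, 99.5, 145 and 139 CPM in control and at 322, 341, 280 and 275 CPM in PPTx. Its groups were far apart, and its edgeR log2 fold change was 1.17 ± 0.17 (adjusted p = 0.00308). The list's median log2 fold change was 0.06, against -0.01 over all genes tested. Fkbp11 was called with each sample left out in turn, with an adjusted p of up to 0.0327 (without PPTx replicate 1). The share over all genes was 0.288% in edgeR, but the list was drawn up with earlier results of these data known. DESeq2 called 2 genes of the list, Fkbp11 and Slc2a2, among the 5 it gave an adjusted p, and 27 of 1442 genes in all. In edgeR 4 genes of the list had an unadjusted p under 0.05, beside 9.44% of all genes. The cyclin genes Ccnd1 and Ccnd2 averaged 209 ± 57.5 and 886 ± 335 CPM in control, and 258 ± 13.9 and 1035 ± 374 CPM in PPTx, and neither was called. Lactogen signalling genes gave 0 of 16 called by edgeR and by DESeq2, which left 10 without an adjusted p, and 1 (Socs2) had an unadjusted p under 0.05. The median of that list was -0.10. Jak2 had 35 UMIs in control and 49 in PPTx, and Stat5b had 89 and 95.

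**Figure D4:**
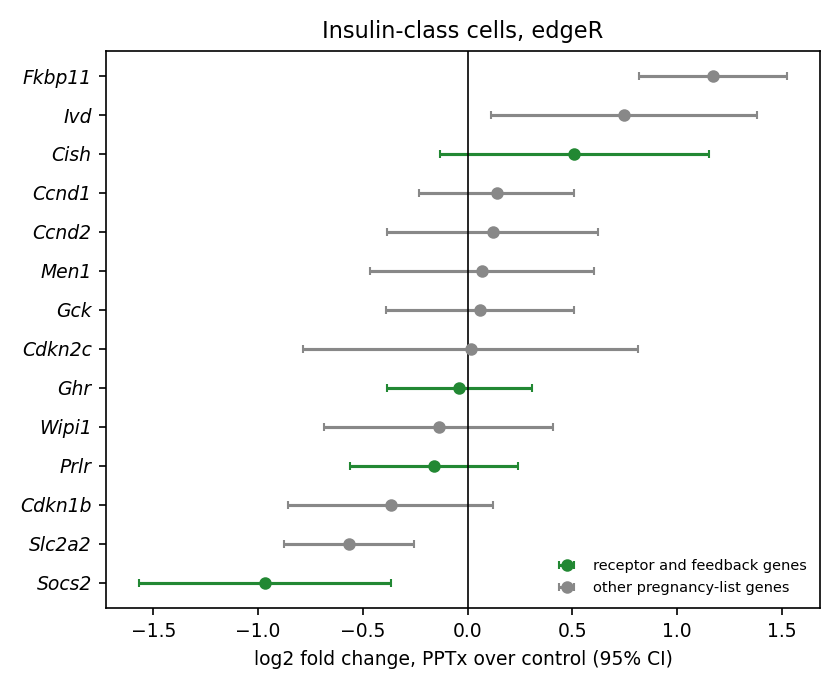
edgeR log2 fold changes of PPTx over control in insulin-class cells, with 95% intervals, for Ghr and the 13 tested genes of the pregnancy list. Fkbp11 lies highest at 1.17 and Socs2 lowest at -0.97, and the intervals of Prlr, Ghr and Cish include 0.

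Further genes of the lists did not overlap between groups, and those named next were picked out after their values were seen. Ivd, an enzyme of leucine breakdown, stood at 9.19 to 15.7 CPM in control and 21.9 to 26.5 CPM in PPTx (edgeR adjusted p = 0.454). Tnfrsf11b, which encodes the decoy receptor osteoprotegerin, had 2 UMIs in control and 23 in PPTx, a pooled ratio of 9.06 (2.24 to 79.3, counting error only), with 0 to 1.57 CPM in control samples and 5.05 to 9.34 CPM in PPTx samples. It did not pass the filter. Slc2a2 was at 233 to 275 CPM in control and 160 to 199 CPM in PPTx (edgeR adjusted p = 0.148). Stat5a, not tested either, had 23 UMIs at 6.35 to 15.3 CPM in control and 21 UMIs at 5.19 to 6.34 CPM in PPTx. Of the 13 pregnancy-list genes tested, 4 did not overlap (Fkbp11, Ivd, Slc2a2 and Socs2), beside the 5.84% over all genes. Since the lists were drawn up with earlier results of these data known, these shares are a description only. On the other lists this held for 1 of 16 lactogen signalling genes (Socs2), 0 of 9 serotonin genes and 0 of 13 genes of peroxisomes and fatty acid oxidation.

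Replicating cells were insulin-class cells with at least 2 UMIs of 10 mitotic markers. They numbered 41, of which 10 came from control and 31 from PPTx, with 1 to 4 in a control sample and 3 to 15 in a PPTx sample. They were compared with the other 912 insulin-class cells. Prlr UMIs were seen in 31 of the 41 cells (75.6%, exact binomial 95% interval 59.7 to 87.6) and in 81.0% of the others. After thinning to 2000 UMIs these shares were 53.7% and 53.5%. The pooled rate ratio of replicating to other cells was 0.987 for Prlr (0.821 to 1.18) and 0.882 for Ghr (0.603 to 1.25), counting error only. For Prlr the pooled values of the groups lay on opposite sides, at 257 CPM (exact Poisson 95% interval 157 to 397) in replicating and 449 CPM (424 to 474) in other cells of control, and at 482 CPM (396 to 581) and 415 CPM (394 to 438) in PPTx. The 10 replicating cells of control held 20 Prlr UMIs, and the difference between the groups was not tested. Single samples set the control values, which were 348 CPM (209 to 543) against 397 CPM without control replicate 4, where 4 replicating cells held 1 Prlr UMI, and 126 CPM (34.2 to 322) against 500 CPM without control replicate 3. Across samples Prlr was higher in replicating cells in 4 of 8, with a mean difference of -9.21 ± 241 CPM (exact sign-flip p = 0.922). Ghr was lower in 6 of 8, by 56.7 ± 63.3 CPM on average (exact sign-flip p = 0.0625), and 3 of those samples had no Ghr UMI in 1, 1 and 3 replicating cells. The Ghr difference passed the threshold without PPTx replicate 3 (-69.0 CPM) and with hormone genes left out of the totals (-177.2 CPM, exact sign-flip p = 0.0313 for each). In edgeR, over the 6 samples with at least 3 replicating cells, the log2 differences were -0.21 ± 0.22 for Prlr (adjusted p = 0.717) and -0.40 ± 0.32 for Ghr (adjusted p = 0.579). Of these 2 members none was called, none had an unadjusted p under 0.05 and DESeq2 called none, where 5.33% of 2644 genes were called, 3.56% higher in replicating cells.

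**Figure D5:**
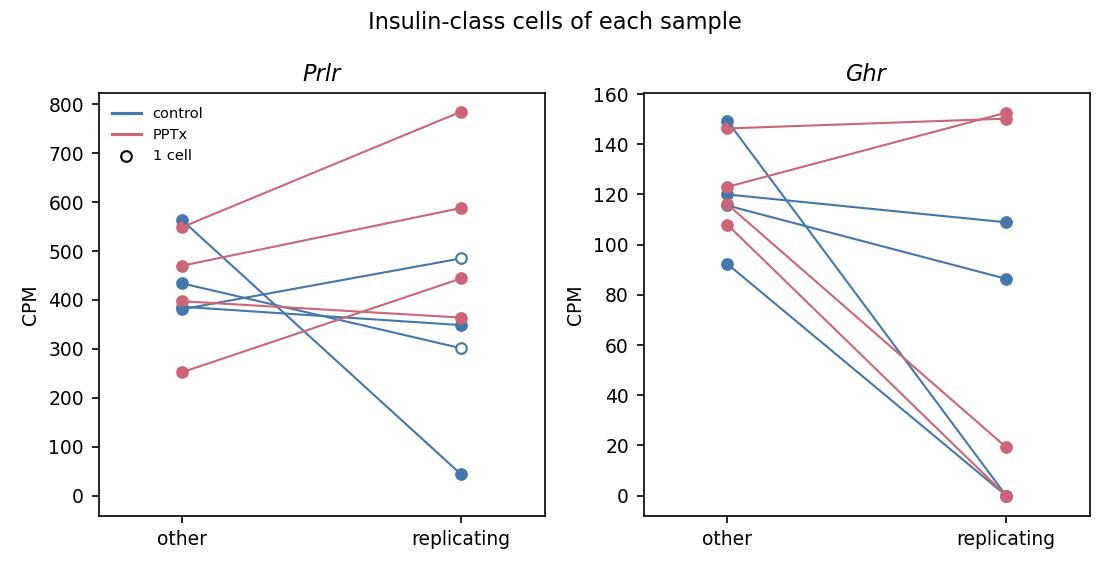
CPM of Prlr (left) and Ghr (right) in replicating and other insulin-class cells, with a line joining the values of each sample; open points are single cells. Lines for Prlr rise in 4 samples and fall in 4, and 3 samples reach 0 for Ghr, where their points overlie each other.

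The rarer members gave few counts there. Cish had 10 UMIs in 8 replicating cells, all of PPTx, and none in the 10 replicating cells of control, which allows a share of up to 30%. Its pooled ratio to other insulin-class cells was 1.64 (0.767 to 3.12, counting error only), but across samples it was higher in 2 and lower in 6, by -4.20 CPM on average (exact sign-flip p = 0.625). Socs2 had 6 UMIs (ratio 0.850, 0.307 to 1.90). Ehhadh had 5 UMIs in 4 cells of PPTx replicates 1 and 3 (ratio 3.67, 1.11 to 9.68, counting error only), but across samples it was higher in 2 and lower in 5 (exact sign-flip p = 0.625). Tph1 and Tph2 had no UMI in the 41 cells, which allows a share of up to 7.32%, or 9.80 CPM. Of 7 tested lactogen signalling genes, edgeR called Igf1r, which was lower in replicating cells (-2.10 ± 0.58). These held 5 of its 417 insulin-class UMIs. It passed the filter through the other insulin-class cells, where it is high, so the p of that call is not given as support. The call of Igf1r was lost without control replicate 3 (adjusted p = 0.0633), without PPTx replicate 3 (0.0558) and in DESeq2 (0.0683). Of 9 tested pregnancy-list genes 2 were called, Birc5 and Cdkn2c, where 5.33% of all genes were. Birc5 is one of the markers that defined the cells, so its difference follows from the rule. Cdkn2c, a cyclin-dependent kinase inhibitor gene, had 45 of its 80 insulin-class UMIs in the 41 cells, a log2 difference of 4.31 ± 0.41 (SE). It passed the filter through the replicating cells, where it is high, so its p is not given as support.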

How the data were processed

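Islet cells of 8 samples were captured in droplets (ddSEQ isolator), reads were aligned to mm10 and UMIs counted per gene and cell. Per the labels and methods, the authors deposited these counts without normalization, and the tables used here hold no other values. The labels name bcl2fastq and a Chromium kit, while the methods name a SureCell kit. Genes and lists were chosen with earlier results of these data known. The study's limits on cells (at least 100 and at most 3000 genes, at least 100 and at most 20000 UMIs) were applied. Doublets were not called. Mixed-hormone cells were set apart and entered only the all-cell sums, so doublets within a class remain. Counts were summed per sample and class, and CPM is UMIs scaled to a sum of 1000000. Since 3-prime UMI counts depend on gene and priming site, levels were compared within a gene only.

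edgeR 4.0.16 (quasi-likelihood, TMM, filterByExpr, Benjamini-Hochberg adjusted p, threshold 0.05) tested all genes, and DESeq2 1.42.0 was the alternative, both in R 4.3.3. Sums of under 10 cells (3 for replicating cells) were left out. Fits were tested on simulated data. Exact permutation tests over samples used Python 3.11.15 and scipy 1.17.1. Samples pool 1 to 3 mice and carry separate labels, and p-values measure the spread between these samples. Same-numbered control and PPTx samples deviated together over 1584 genes (correlations 0.185, 0.107, 0.173 and 0.315, each the highest for its sample), so values with the pairs as a block were computed too. All members were reported in each comparison, and called list genes up to 8 per comparison. A count of 0 was given the limit of 3 counts. Other alternatives were hormone genes left out, no filter, class margins of 5 and 1, thinning, and each sample left out. Intervals and limits cover counting error only.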

Additional observations from a re-analysis of the deposited data

Results flagged for a closer look

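The Ghr level in the other hormone classes stood apart in 1 sample of each group, by the gap to its nearest neighbour relative to the range of its group. In control replicate 1 it was 223.5 CPM, from 6 UMIs in 10 cells, where the other control samples had 45.9 to 73.9 CPM. In PPTx replicate 4 it was 77.0 CPM, from 4 UMIs in 17 cells, where the other PPTx samples had 45.5 to 50.2 CPM. About 1 group in 20 is set apart in this way by chance.

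Cells outside the class comparisons also held counts of these genes. The 22 mixed cells, in which no hormone reached 2 times the next, had 12 Prlr UMIs, 11 Ghr UMIs and 4 Socs2 UMIs. PPTx replicate 2 held 7 of those Prlr UMIs, and all 4 Socs2 UMIs came from 2 cells of control replicate 4. The 8 cells above the limits on genes or UMIs had 66 Prlr UMIs, 14 Ghr UMIs and 5 Socs2 UMIs, which is 529, 112 and 40.04 CPM.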

How the results depend on the processing

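Of the alternatives that gave a value, 755 kept the direction and the side of the threshold, 37 reversed a direction, 20 moved a count by over 1.5 times, 14 gained a call and 20 lost one. A class margin of 5 and no margin for CPM, cells with at least 20% insulin, replicating cells left out, the sum of other hormone classes the leaving out of samples for shares of cells and all settings for the share of all cells with Cish were chosen after seeing the data. Between PPTx and control, 17 genes were called in insulin-class cells, 27 by DESeq2, 90 without a filter, 33 with replicate numbers as a block and 1 to 17 with a sample left out. In all cells 32 were called, 118 without a filter, 58 with the block and 10 to 33 with a sample left out (10 without PPTx replicate 1, 13 without control replicate 4, 17, 20 and 21 without control replicates 2, 3 and 1). Besides these counts, the block changed the calls of Socs2 CPM (-12.9) and of the share of all cells with Cish (1.97 percentage points), each at p = 0.125 by exact sign flips of 4 pairs, and no other call it was run for. The CPM difference of Socs2 was -9.88 after thinning and -15.1 to -9.84 with a sample left out (exact permutation p from 0.0286 to 0.0571). Over all its 16 alternatives the Socs2 difference ran from -41.2 to -9.84 CPM. DESeq2 called 526 genes between the insulin and Ppy classes and 322 between the insulin and Gcg classes (edgeR 860 and 819, the latter 441 to 751 with a sample left out, where the spread is pooled over the 2 samples left). Against the other hormone classes 1088 became 1823 without a filter, and for replicating cells 141 became 87 by DESeq2 and 509 without a filter. Ghr, insulin minus other classes, was 43.8 CPM, 74.6 CPM after thinning and 159.8 CPM without hormone genes (both exact sign-flip p = 0.0156), and was 36.3 to 60.9 CPM with a sample left out. The same difference for Prlr was 411 CPM, and it ran from 390 to 1153 CPM over its 12 alternatives.

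Directions that reversed belonged to differences that no test separated from 0, and the cause was not tested. For PPTx minus control these were Ghr at -19.7 CPM without hormone genes, Ehhadh at -1.39 CPM after thinning, -1.21 CPM without hormone genes and -1.19 CPM without replicating cells, Tph2 at 0.530 CPM after thinning, and the share of cells with Ghr at -0.288 percentage points without thinning. For replicating minus other cells they were Prlr at 119.9 CPM after thinning, 10.6 CPM with at least 3 and 47.9 CPM with at least 1 marker UMI (log2 0.10), Cish at 13.3 CPM after thinning and 13.8 CPM with at least 1 marker UMI, and Ehhadh at -3.82 CPM after thinning. Ehhadh, insulin minus other classes, was 1.98 CPM without hormone genes.

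With a sample left out, values that crossed 0 ranged, for PPTx minus control in insulin-class cells, from -58.0 to 38.4 CPM and log2 -0.37 to 0.011 for Prlr, from -5.51 to 13.4 CPM and log2 -0.12 to 0.019 for Ghr, from -1.53 to 1.88 CPM for Ehhadh and from -5.94 to 1.75 percentage points for the share with Prlr. In all cells they ranged from log2 -0.28 to 0.14 for Prlr and -0.062 to 0.12 for Ghr. For replicating cells they ranged from -44.2 to 63.7 CPM and log2 -0.42 to 0.033 for Prlr and from -1.04 to 7.80 CPM for Ehhadh, and for Ehhadh between classes from -2.43 to 3.67 CPM. Comparisons of PPTx and control within the Ppy or Gcg class, and of the insulin and Sst classes, could not be fitted in edgeR for too few cells per sample. Depth limits Tph1, Tph2 and Ehhadh, with at most 36 UMIs in all.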

Other observations

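In insulin-class cells the ratio of Cish to Socs2 UMIs, picked out after both genes had been seen, was 0.833, 0.364, 0.441 and 0.559 in the control samples and 3, 1.40, 1.18 and 1 in the PPTx samples. Every PPTx sample was above every control sample, and the counts behind a single ratio were as low as 4 Cish and 6 Socs2 UMIs. The ratio of 2 genes within a sample does not depend on the total of that sample. It was not tested, since the genes were chosen for it.

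Igf1, a growth factor gene that growth hormone induces in liver, had 22 UMIs in only 4 insulin-class cells, 6 UMIs in control and 16 in PPTx. Its values by sample were 0, 0, 0 and 6.89 CPM in control and 0, 2.38, 0 and 23.7 CPM in PPTx.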
